A study of Homo sapiens with 2 samples.

Results

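The myogenic regulatory factors are the 4 genes MYOD1, MYF5, MYF6 and MYOG, and OTX2 binding around them was measured by chromatin immunoprecipitation sequencing (ChIP-Seq) in D283 tumorspheres. D283 is an established medulloblastoma (MB) cell line that the study describes as having traits of both the Group 3 and the Group 4 subgroup. The labels call the spheres OTX2+ controls and give no treatment, and the study calls them OTX2high, a name it also uses for its scramble controls. OTX2 is a homeodomain transcription factor. A single OTX2 ChIP library was sequenced with a single input library of sheared chromatin without antibody, both from this line, so there is no replicate error and no test between samples. The genes were chosen by name, and the peaks by position. A peak was taken when at least 1 bp of it overlapped the GENCODE gene record in GRCh38 extended by 50 kb on each side. This gave 15 distinct peaks of the 137412 in the deposited list, around 4 of 19881 protein-coding genes. After removal of duplicates the ChIP library held 61259377 fragments and the input library 22521186. The peak list carries no expression values, so whether the 4 genes are transcribed in these cells was not analysed here.

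The myogenic regulatory factors are basic helix-loop-helix (bHLH) transcription factors that pair with E proteins, bind E-boxes (CANNTG) and drive muscle genes. MYF5 and MYOD1 commit precursor cells to the muscle lineage, MYOG drives their differentiation, and MYF6 acts in both determination and in maturing fibres. MYOD1 is controlled by a core enhancer far upstream and by a distal regulatory region closer to the gene.

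OTX2 peaks lay at the promoter of MYOG, about 20 kb upstream of MYOD1, and between MYF6 and MYF5, while the records of MYOD1, MYF5 and MYF6 held no peak. A peak is an enrichment of ChIP over input, and direct contact of OTX2 with DNA was not tested. The MYOG promoter peak was the strongest of the 15, with a fold enrichment over the local input of 25.4, and the upstream MYOD1 peak came next with 16.98. The number of peaks around the genes was not unusual. Each of the 4 had at least 1 peak within 50 kb, as did 94.1% of all protein-coding genes and 83.7% of the 2745 with a record of up to 5 kb, the size class of the members. In the window around the transcription start site (TSS) that reaches 5 kb upstream and 2 kb downstream, 2 of the 4 (MYF5 and MYOG) had a peak, against 57.2% of protein-coding genes. Over the 15 peaks the median fold enrichment was 6.19 (range 3.44 to 25.4), against 6.10 over the whole list, and the median height was 53 fragments (range 22 to 171), against 53. Of the 15, 5 had a fold enrichment of at least 10, a level passed by 26.3% of all peaks.

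Promoter sequences were matched for 3 of the 4 members, and that of MYOD1 was not analysed here. They are shown because the MYOG promoter lay wholly under a peak and those of MYF5 and MYF6 did not touch one. They are the 250 bases upstream of the RefSeq gene start in GRCh38.p14, written 5′ to 3′ on the strand of the gene. Capitals mark every match, on either strand, to TAATCC or TAATCT, to the E-box, to the MEF2 consensus and to TCAGGTTTC. The study ascribes TAATCC and TAATCT to OTX2 and states that they are not specific to it. TCAGGTTTC is the MEF3 element, bound by sine oculis homeobox proteins. No match overlapped another.
MYOG, chr1:203086013-203086262, minus strand: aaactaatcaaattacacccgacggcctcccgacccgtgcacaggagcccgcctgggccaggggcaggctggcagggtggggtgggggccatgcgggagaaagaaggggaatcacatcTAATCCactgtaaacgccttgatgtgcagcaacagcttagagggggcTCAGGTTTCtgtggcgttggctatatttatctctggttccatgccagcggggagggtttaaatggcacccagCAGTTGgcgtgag
MYF5, chr12:80716662-80716911, plus strand: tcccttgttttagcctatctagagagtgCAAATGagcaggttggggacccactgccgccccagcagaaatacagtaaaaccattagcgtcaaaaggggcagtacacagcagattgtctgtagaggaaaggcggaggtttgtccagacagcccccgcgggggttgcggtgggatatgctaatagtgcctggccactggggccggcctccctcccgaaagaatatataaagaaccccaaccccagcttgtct
MYF6, chr12:80707384-80707633, plus strand: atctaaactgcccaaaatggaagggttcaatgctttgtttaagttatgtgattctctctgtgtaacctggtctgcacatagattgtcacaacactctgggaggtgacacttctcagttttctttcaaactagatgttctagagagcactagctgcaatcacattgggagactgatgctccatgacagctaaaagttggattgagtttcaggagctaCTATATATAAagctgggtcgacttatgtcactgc

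MYOD1 (ENSG00000129152), a determination factor, spans 17719571 to 17722136 of chromosome 11, plus strand. Its extended record held 3 peaks, all between genes. The strongest, from 17699509 to 17699913, was 19.9 kb upstream of the TSS at its summit. It held 119 fragments (98.6 to 142 as a 95% Poisson interval), a pileup of 87.5 and a −log10 q of 78.2. Poisson intervals here and below cover counting error only. In the region from 15 to 25 kb upstream, where the core enhancer is known to lie, this was the only summit. A summit in the same interval was present for 35.5% of protein-coding genes, and among those 7060 genes the fold enrichment of 16.98 at MYOD1 stood at percentile 87.9, the median being 6.82. The study cites earlier work by Bai et al. in which OTX2 bound the MYOD1 core enhancer in MB cells and repressed myogenic differentiation. The position of the enhancer is background and was not read from the files, so an overlap of peak and enhancer was not tested.

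A weaker MYOD1 peak, from 17691841 to 17692085, lay 27.6 kb upstream and held 24 fragments (15.4 to 35.7). Its fold enrichment of 3.73 was lower than that of most peaks (percentile 16.7). The third, from 17730654 to 17731487, lay 11.7 kb downstream of the MYOD1 TSS and was enriched 12.0-fold, at 113 fragments (93.1 to 136). Its summit was closer to the neighbouring gene, 3485 bp upstream of the TSS of KCNC1, a voltage-gated potassium channel of neurons. No summit fell 3 to 7 kb upstream of MYOD1, the region of its distal regulatory region, where 18.7% of protein-coding genes had one. The gene thus sat in a stretch of 30.7 kb without a peak, 19.7 kb from the nearest peak upstream and 8.52 kb from the nearest downstream. For genes with a record of up to 5 kb the median distance to the nearest peak was 6.03 kb, and MYOD1 stood at percentile 55.5 of them.

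MYF5 and MYF6 are neighbours on chromosome 12 and were described together, since 5 of their peaks are the same. MYF6 (ENSG00000111046) runs from 80707634 to 80709474 and MYF5 (ENSG00000111049) from 80716912 to 80719671, both on the plus strand, with 7437 bp between them. Within 50 kb there were 6 peaks for MYF5 and 5 for MYF6, the additional one lying 47.2 kb downstream of the MYF5 TSS in intron 1 of the noncoding gene LINC01490. Of the shared peaks, 3 lay in the stretch between the genes.

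The intergenic peak nearest to MYF5, from 80715469 to 80715908, peaked 1246 bp before the MYF5 TSS at 41 fragments (29.4 to 55.6), enriched 6.25-fold. The next, from 80711704 to 80712501, lay 4624 bp upstream of MYF5 and 4654 bp downstream of the MYF6 TSS and held 66 fragments (51.0 to 84.0), enriched 6.19-fold. The third, from 80711130 to 80711373, lay 3638 bp downstream of the MYF6 TSS and held 27 fragments (17.8 to 39.3), enriched 4.18-fold. These were ordinary peaks, at percentiles 51.3, 50.8 and 24.5 of all fold enrichments.

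The tallest peak of the MYF5 and MYF6 locus lay upstream of both genes. It ran from 80682462 to 80682922, 25022 bp upstream of the MYF6 TSS and 34.3 kb upstream of that of MYF5 at its summit, and held 78 fragments (61.7 to 97.3), enriched 10.3-fold. A further peak, from 80675621 to 80675931, lay 31.8 kb upstream of MYF6 and held 36 fragments (25.2 to 49.8), enriched 4.58-fold. Enhancers of MYF5 and MYF6 are known to be spread over a long stretch upstream of the pair, and their positions were not compared with these peaks. The peak in LINC01490, from 80763932 to 80764328, held 53 fragments (39.7 to 69.3), enriched 6.26-fold.

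MYOG (ENSG00000122180), the differentiation factor, spans 203083129 to 203086012 of chromosome 1, minus strand, and was the only member with a peak overlapping its record. Among protein-coding genes of up to 5 kb, 26.0% had such a peak. The MYOG promoter peak ran from 203085818 to 203087674 and its summit fell 87 bp before the TSS. Most of it lay upstream, 195 bp being inside the record. It had 171 fragments (146 to 199), a pileup of 125.7, a −log10 q of 134 and a length of 1857 bp, against a median length of 440 bp over all peaks, and stood at percentile 96.9 of all peaks in fold enrichment and 99.3 in length. A summit within 250 bp upstream of the TSS was present for 18.6% of protein-coding genes. Among these 3688 genes the median fold enrichment was 5.66 and MYOG stood at percentile 99.3. A peak at the promoter was thus found at many genes, and few of them reached the enrichment seen at MYOG.

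In the MYOG promoter shown above, the TAATCC began 132 bp upstream of the TSS on the strand of the gene, from 203086139 to 203086144, 40 bp from the peak summit. The MEF3 element TCAGGTTTC, from 203086089 to 203086097, ended 2 bp from the summit, and the E-box CAGTTG lay at 203086020 to 203086025. The MYF5 promoter held 1 E-box and the MYF6 promoter 1 match to the MEF2 consensus, and neither held TAATCC or TAATCT. These matches are descriptions and not binding sites. Only full matches were marked, so a promoter without a match may still hold an element that departs from the pattern, also for MEF2 at MYOG. Among 35116 RefSeq promoters of the same length, 5.62% held TAATCC, 6.41% TAATCT, 61.8% an E-box, 2.80% the MEF2 consensus and 0.288% TCAGGTTTC, and 29.5% were touched by a peak. The nearest peaks to the MYF5 and MYF6 promoters lay 754 bp and 3497 bp away. Sequence under the other peaks was not analysed here.

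The 5 other peaks around MYOG lay on both sides. From 203082083 to 203082468, 3799 bp downstream of the TSS and just beyond the 3′ end of the gene, a peak held 98 fragments (79.6 to 119) but was enriched only 4.06-fold. The local input, worked back from the pileup and the fold, was 17 there. This was 4.27 times the 1st percentile over all peaks, 3.99. A local input at least as high, compared at 2 decimals, was found at 0.810% of all peaks. The other 14 peaks had a local input of at most 7.0. At the promoter peak it was 3.99, level with the 1st percentile, so the 25.4-fold enrichment there was set against a low input value. In fragments the promoter peak stood at percentile 90.7 of all peaks. From 203096426 to 203096870, 10.7 kb upstream, a peak in an intron of ADORA1, an adenosine receptor gene, held 127 fragments (106 to 151), enriched 12.9-fold. Its summit was 6014 bp from the ADORA1 TSS and so closer to that gene. The remaining 3 lay 34.1, 39.5 and 46.3 kb downstream in PPFIA4, a liprin scaffold gene, 1 in an exon and 2 in introns, and were low, with 33, 32 and 22 fragments and fold enrichments of 5.07, 4.09 and 3.44.

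**Figure D1:**
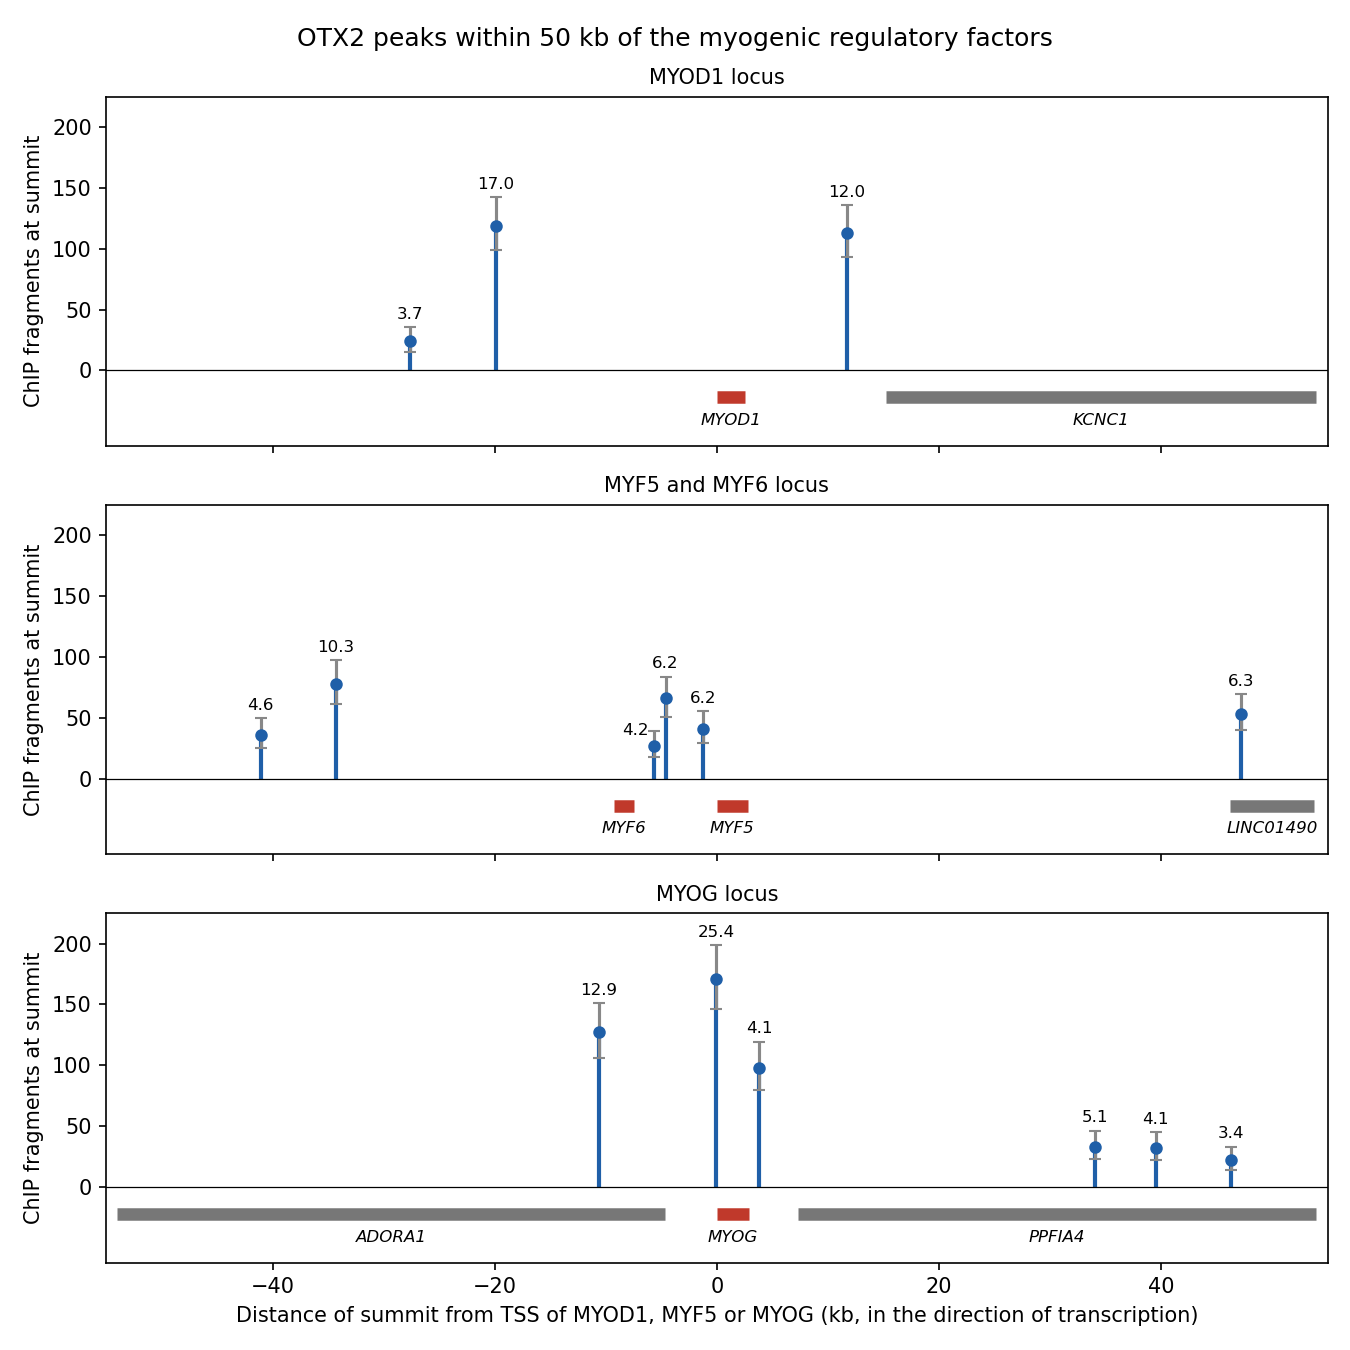
OTX2 peaks around MYOD1 (top), MYF5 and MYF6 (middle) and MYOG (bottom). The x axis is the distance of each summit from the TSS of MYOD1, MYF5 or MYOG in kb, in the direction of transcription, and the y axis the ChIP fragments at the summit from 1 library. Points carry 95% Poisson intervals, numbers above them are fold enrichments, red bars are the members and grey bars are neighbouring genes, cut at the edge of the panel. The MYOG promoter peak is the tallest at 171 fragments, and the MYOD1 record lies in a gap between peaks of 119 and 113 fragments.

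To compare the genes with their surroundings, summits per 100 kb in the extended record were set against those in the 1 Mb beyond each end. The intervals given are exact conditional binomial 95% intervals of the ratio, which treat summits as independent and cover counting error only. At MYOD1 the density was 2.92 summits per 100 kb against 6.35 in the flanks, a ratio of 0.461 (0.0937 to 1.38), or 0.734 with 20 kb on each side of the record. At MYOG it was 5.83 against 8.50, a ratio of 0.686 (0.248 to 1.52), which turned to 1.06 with the whole chromosome as the surroundings. At MYF5 it was 5.84 against 4.30, a ratio of 1.36 (0.485 to 3.08). At MYF6 it was 4.91 against 4.35, a ratio of 1.13 (0.358 to 2.74), which turned to 0.872 with the whole chromosome. All 4 intervals include 1, so with 3 to 6 summits a window neither a lower nor a higher density than in the surroundings was detectable.

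Among all protein-coding genes the median ratio was 1.01, with quartiles of 0.610 and 1.53. MYOD1 stood at percentile 17.2 of these ratios, MYOG at 29.7, MYF6 at 56.5 and MYF5 at 68.0. Among genes with a record of up to 5 kb the median ratio was 0.858, with quartiles of 0.324 and 1.52. In this size class MYOD1 stood at percentile 31.5, MYOG at 41.5, MYF6 at 61.6 and MYF5 at 70.0. In single bins of 100 kb along 1 Mb on each side, the bin at MYOD1 held 3 summits and the 20 others between 1 and 14, with 14 of the 20 above it. The 2 bins next to it each held 1 summit. The bin at MYOG held 6 summits, the others between 4 and 16, with 12 above it. For MYF5 the bin held 6, the others between 1 and 9, with 2 above it, and for MYF6 it held 5, the others between 0 and 8, with 6 above it. The counts at all 4 genes fell inside the range of the bins around them.

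**Figure D2:**
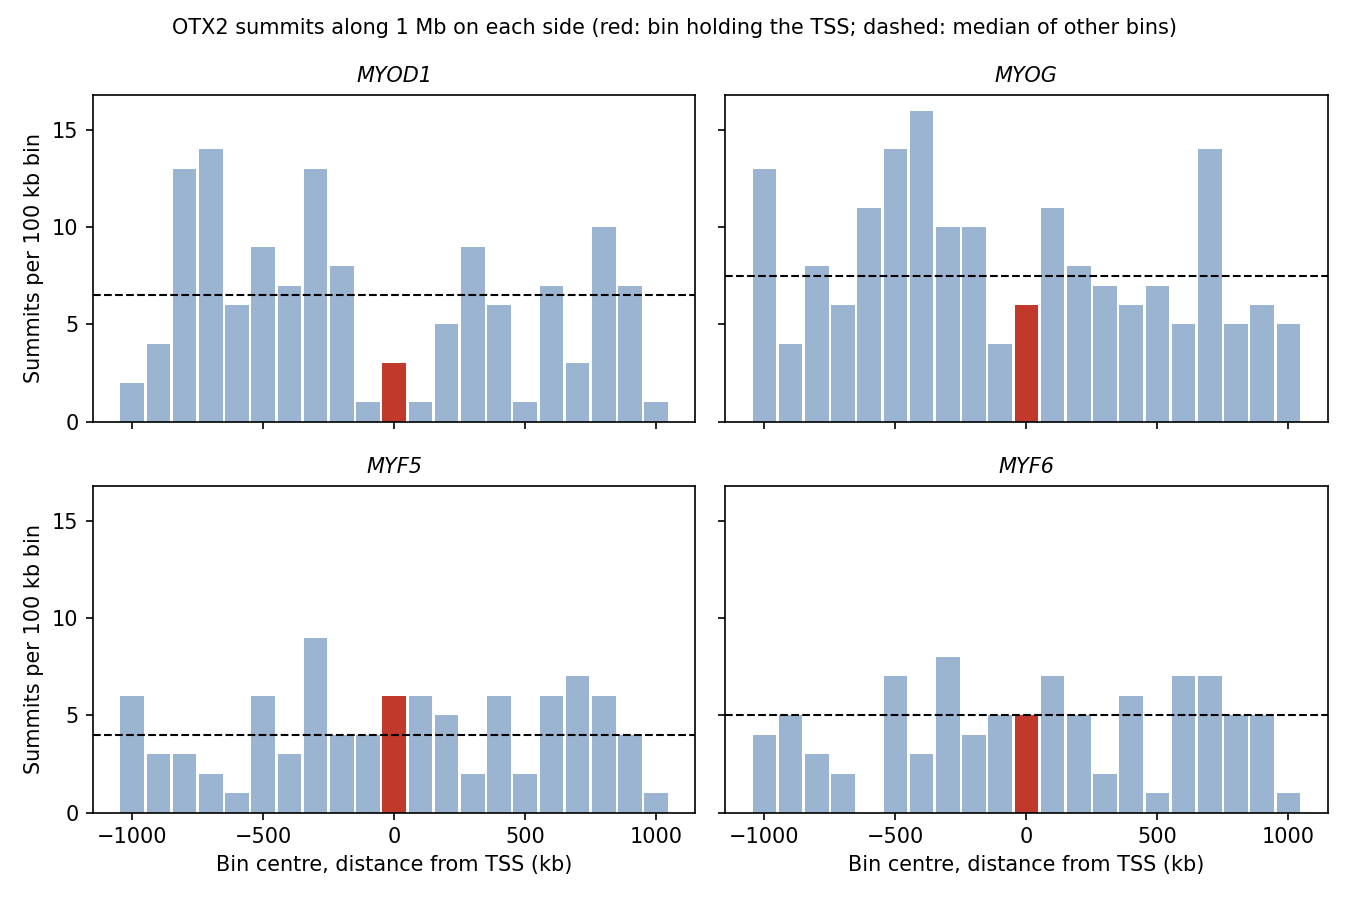
Number of OTX2 summits in bins of 100 kb around the TSS of each member. The x axis is the distance of the bin centre from the TSS in kb, the y axis the number of summits in 1 library, the red bar the bin that holds the TSS and the dashed line the median of the 20 other bins. The red bar lies below the line at MYOD1 (3 against 6.5) and MYOG (6 against 7.5), above it at MYF5 (6 against 4) and on it at MYF6 (5 against 5).

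The strongest peak within 50 kb gave a different order of the genes from the number of peaks. Its fold enrichment was 25.4 for MYOG, 16.98 for MYOD1 and 10.3 for MYF5 and MYF6, which share it. Among the protein-coding genes of up to 5 kb with a peak, the median was 12.4, and the members stood at percentiles 88.8, 69.2 and 38.9. Peaks covered 3.77% of the extended record of MYOG, 2.58% of that of MYF5, 2.21% of that of MYF6 and 1.45% of that of MYOD1, against a median of 1.87% for genes of this size.

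Genes that act before, with, against and after the myogenic regulatory factors were described by the same counts. Across all protein-coding genes the median density was 5.10 summits per 100 kb (quartiles 2.73 and 7.86), and the 4 members had a median of 5.37. Genes of up to 5 kb had a median of 3.90 (quartiles 0.989 and 7.65). The lists were not matched for record length. Its median was 2663 bp for the members and up to 151072 bp in the other lists. The 10 regulators of myogenic specification had a median of 5.23, and all 10 had a peak within 50 kb. EYA2, a transcriptional coactivator, had 9.13 summits per 100 kb. The lowest was PAX7, the factor of muscle stem cells, with 0.917. The 7 E protein and MEF2 partners, which join the factors at muscle genes, had a median of 6.28, all 7 with a peak, from 13.9 at MEF2D and 8.74 at TCF12 down to 4.88 at MEF2C.

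The 12 inhibitors had a median of 6.18, and 11 of 12 had a peak. This list held the highest densities, 18.8 at ID1 and 16.7 at ID3, which encode proteins that pair with E proteins and keep them off DNA, while TWIST2 had 0 peaks. At ID1 the flanks held 3.55 summits per 100 kb, a ratio of 5.29. The 23 muscle target genes had a median of 5.42, and 20 of 23 had a peak. The highest were ACTA1, skeletal muscle actin, with 14.5 and CASQ2, a calcium store protein, with 13.6. MYH1, MYH2 and MYMK, for adult myosins and a fusion protein, had 0 peaks. Beside the 94.1% of all protein-coding genes with a peak, none of these counts is a result about the lists.

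Proneural and related neural bHLH factors, which direct neuronal and glial fates, were the closest group for comparison and have records of similar size (median 2752.5 bp against 2663 bp for the members). Of 16 such genes, 13 had a peak within 50 kb, beside 94.1% of all protein-coding genes and 83.7% of those of up to 5 kb. Some of the 16 are longer than that size class, such as NEUROD1 with a record of 12533 bp. In the TSS window 6 of the 16 had a peak, beside 57.2% of all protein-coding genes. The median density of the 16 was 4.69 summits per 100 kb. The highest were NEUROG1 with 16.7 and NEUROD1 with 15.1, and ASCL2, NEUROD6 and NEUROG3 had 0. No difference between the members and these genes was tested.

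**Figure D3:**
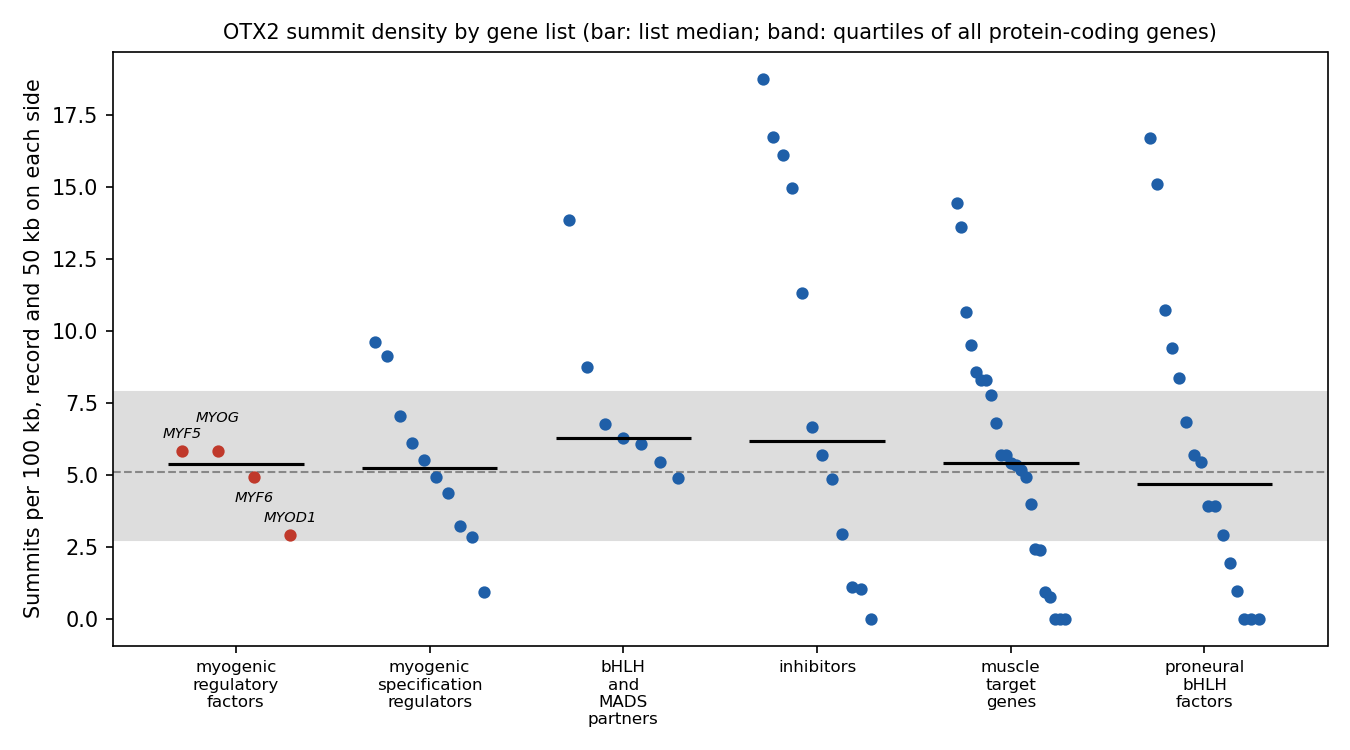
OTX2 summits per 100 kb in the gene record extended by 50 kb on each side, for the myogenic regulatory factors (red) and 5 related gene lists (blue). Each point is 1 gene in 1 library, bars are list medians, and the grey band and dashed line are the quartiles and the median of all protein-coding genes. All 4 members lie inside the band from 2.73 to 7.86. Record length was not matched between the lists or with the band.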

How the data were processed

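ChIP-Seq was performed by the authors on D283 tumorspheres. Reads were mapped to GRCh38 with bowtie2 2.2.4 and peaks were called with MACS2 2.1.0.20140616 at a q-value cutoff of 0.05, with 1 paired-end fragment kept per position. The study states masking for the ENCODE blacklist. The deposited pileup is a signal, the ChIP coverage at the summit scaled towards the smaller input library. Fold enrichment, as deposited, is the pileup plus 1 as a ratio to the local input plus 1. The deposited −log10 q compares each peak with local input, and the −log10 p was not used.

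Pileups were divided by 0.735, the weight of 1 fragment (100% were whole within 0.02 fragments). Gene positions were the GRCh38 locations that GENCODE release 44 records for each exon in its GRCh37 version, and no coordinate was converted. All values are descriptions with no test, including percentiles, where ties count at their middle. Counting was tested on simulated peaks. Members, lists and the rule for named genes (the highest 2 and the lowest density in each list) were chosen with earlier results of these data known. A gene that the rule covers is not reported here. Genes of up to 5 kb, gaps between peaks, bins, ranks of single peaks and motifs were added after the peaks were seen. Tools were scipy 1.17.1 and numpy 2.4.6 under Python 3.11.15, with tables in pandas 2.3.3 and plots in matplotlib 3.10.9.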

Additional observations from a re-analysis of the deposited data

How the results depend on the processing

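With 1 library of each kind no replicate could be left out. No paired analysis was possible because each kind had 1 library. Keeping peaks enriched at least 5-fold, the number within 50 kb fell from 5 to 3 at MYF6 and from 6 to 3 at MYOG, by construction of the threshold, and among protein-coding genes the percentage with a peak fell from 94.1% to 89.7%. With a −log10 q of at least 5 that percentage was 93.0%. The other counts of peaks at the members moved by no more than 1.5 times under a −log10 q of at least 5, a fold enrichment of at least 5 or a summit in the window, and the MYOD1 summit 15 to 25 kb upstream passed both stricter thresholds, an alternative chosen after seeing the data. The density ratios stayed inside their counting intervals under all 6 alternatives. Those intervals are wide and the settings recount many of the same summits, so this says little about stability. At MYOD1 the ratios ranged from 0.311 with 100 kb on each side to 0.734 with 20 kb. At MYOG the ratio rose to 1.06 with the whole chromosome as the surroundings, and at MYF6 it fell to 0.9496 with 5 Mb and to 0.872 with the whole chromosome. The shallower input library and the single ChIP library limit the precision of every fold enrichment, and the intervals given cover counting error in the ChIP fragments or summits only.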

Other observations

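Over all 35116 RefSeq promoters of 250 bases, TAATCC was present in 7.09% of the 10343 that a peak touched and in 5.01% of the 24773 others. TAATCT was present in 5.50% and 6.79%, and either motif in 11.9% and 11.2%. The MYOG promoter was among the 7.09%. An E-box was present in 54% of promoters with a peak and in 65.1% of the others, and the MEF2 consensus in 1.40% and 3.39%. Base composition was not matched between these promoters, and its part in the shares was not tested.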
